A study of Homo sapiens with 2 samples.

Results

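The 49 genes described here encode the DNA replication machinery, the regulators of entry into S phase and the machinery of mitosis, and are commonly counted among the targets of the E2F transcription factors or of the related complexes that act later in the cell cycle. They were taken by gene symbol from a given list. The list uses no measured value as a criterion, but it was chosen with earlier results of these data known. All 49 were found among the 21382 genes of the deposited expression table. By role, 22 belonged to DNA replication and nucleotide supply, 8 to G1/S regulation, 17 to mitosis and 2 to chromatin.

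RNA was measured by RNA-Seq in 2 established human prostate cancer cell lines, named RC77 T/E and MDA PCa 2b. Both were untreated, and each was represented by 1 library, so no value below has a replicate error and no test between the lines was possible. The culture conditions differed. MDA PCa 2b received serum (FBS) in a Ham's F-12 type medium that also held insulin, hydrocortisone, mouse epidermal growth factor (EGF), sodium selenite, phosphoethanolamine, cholera toxin and the antibiotics penicillin and streptomycin. Keratinocyte-SFM, the medium of RC77 T/E, held bovine pituitary extract and EGF. Line and medium therefore cannot be told apart in any difference given here. RNA came from bulk cultures, in which a larger share of dividing cells and more transcript per dividing cell also cannot be told apart. 

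Epithelial markers were expressed in both lines, with KRT18 at 320.5 TPM in MDA PCa 2b against 325 TPM in RC77 T/E and all 4 epithelial markers above 1 TPM in each. The prostate luminal markers KLK3 and HOXB13 were on the side of MDA PCa 2b, where KLK3, the gene of prostate-specific antigen, was at 5323 TPM. In RC77 T/E, KLK3 and HOXB13, a homeobox factor, were listed at 0. The basal keratin KRT5 was at 0.00435 TPM in MDA PCa 2b against 4027 TPM in RC77 T/E. The 3 endothelial markers were below 1 TPM in both lines, as were 3 of the 4 immune and 3 of the 4 fibroblast markers. The exceptions were CD68 at 0.663 TPM in MDA PCa 2b against 37.9 TPM in RC77 T/E, and COL1A1 at 0.554 TPM in MDA PCa 2b against 8.24 TPM in RC77 T/E. How far these differences of cell identity go together with the cell cycle genes was not tested.

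As background, the retinoblastoma protein RB1 and its relatives hold E2F factors in check until cyclin-dependent kinases phosphorylate them. Freed E2F1, E2F2 and E2F3 then switch on genes for replication, while E2F7 and E2F8 repress many of the same genes later in S phase. Mitotic genes peak later and are commonly controlled through a promoter element named CHR, for cell cycle genes homology region, which is bound by the DREAM complex in resting cells and by a complex with MYBL2 and FOXM1 in dividing ones. Because the group varies with the share of cells in cycle, it is widely used as a measure of proliferation in tumors, the prostate included.

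Levels are given in TPM, a measure of transcript abundance that is scaled for gene length and library total. The decimal mark of many deposited values had been lost, and its place could be fixed for 16 of the 49 genes. For the other 33 every place that matched the deposited mean and standard error is printed, in the form "1.44 or 14.4 TPM", and the same place applies to both lines. The ratio between the lines does not depend on that choice. Levels of different genes are compared only among the 16.

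RC77 T/E had the higher value in 45 of the 49 genes, or 91.8%, against 44.4% of the 11624 genes whose mean over both lines reached 1 TPM. After centring on the median of all genes the number was 46, since BIRC5 crossed 0. At 2-fold or more, 25 genes (51.0%) were higher in RC77 T/E, where 22.0% of all those genes were. Only E2F2 was at least 2-fold higher in MDA PCa 2b, a direction in which 23.9% of all genes passed 2-fold. At 1.5-fold or more, 38 genes were higher in RC77 T/E, against a background of 28.9%, and 2, E2F2 and CCNE2, were higher in MDA PCa 2b, against 36.3%. The remaining 9 lay within 1.5-fold.

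The shift was broad and moderate in size. The median log2 ratio of RC77 T/E over MDA PCa 2b was 1.04, which is 2.06-fold, with quartiles of 0.71 and 1.49, whereas the median of all genes was -0.17. Of the 49 genes, 32 lay above the percentile 75 of all genes by this ratio, which was at 1.73-fold, and 0 lay above the percentile 90, which was at 9.44-fold. The gene nearest to that bound was E2F7, at 8.74-fold. Both percentiles were taken over 11624 genes, of which 9767 reached 1 TPM in both lines. They were not computed over those 9767 alone. Around the limit of 2-fold, POLA1 (2.06-fold) and E2F1 (2.06-fold) lay just inside, and MCM10, with a log2 ratio of 0.999, and TYMS (1.98-fold) just outside. All 49 had a mean above 1 TPM, so none was lost to that filter, and 47 reached it in both lines. Among all genes that reached 1 TPM in both lines, 14.1% were 2-fold higher in RC77 T/E, as were 24 of these 47, whereas 22.2% passed that limit in the other direction.

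**Figure D1:**
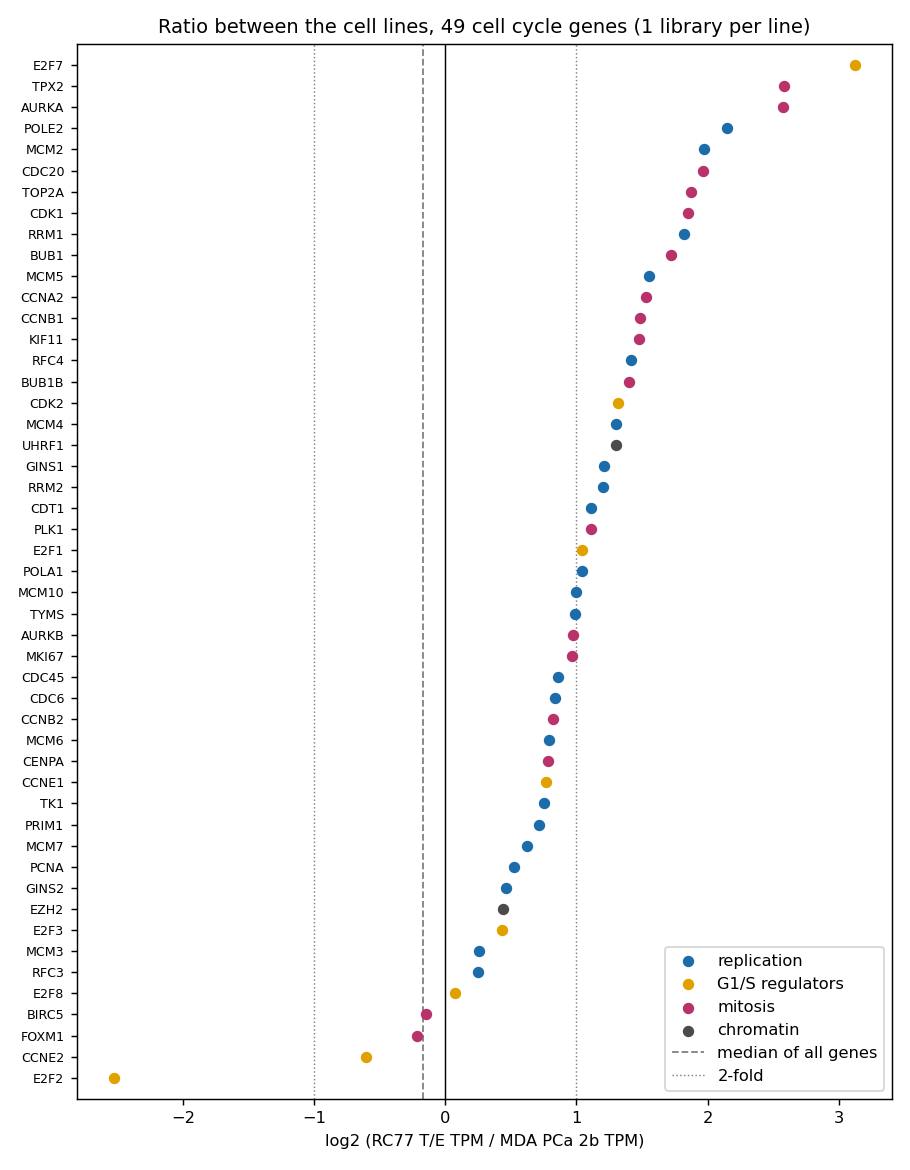
Log2 ratio of RC77 T/E TPM over MDA PCa 2b TPM (horizontal axis) for each of the 49 genes (1 point per gene, 1 library per line), coloured by role, with dotted lines at 2-fold and a dashed line at the median of all genes, -0.17. Points to the right of 0 are the 45 genes higher in RC77 T/E, from E2F8 at 0.07 to E2F7 at 3.13, and E2F2 stands apart on the left at -2.53.

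The promoters of these genes were inspected for the letters of 3 elements, on both strands. The E2F letters were TTTCCCGC, TTTCGCGC, TTTGCCGC and TTTGGCGC, the CHR letters were TTTGAA and TTCGAA, and the CCAAT box was searched as CCAAT. The reverse complement of TTTCGCGC overlaps the word itself in some promoters, and such matches were counted once per promoter. Windows ran from 250 bases before to 50 bases after the gene start in RefSeq (GRCh38.p14) and were held for 40 of the 49 genes. The genes without an entry were MCM4, MCM5, CCNE2, CDK2, E2F8, AURKA, BIRC5, FOXM1 and TPX2.

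E2F letters were present in 13 of 20 replication promoters (65%) and in 2 of 13 mitosis promoters (15.4%), CDK1 and CENPA, compared with 5.42% of the promoters of genes whose mean reached 1 TPM and 3.33% of all 27305 promoters of the same length. CHR letters showed the opposite split, with 2 of 20 replication promoters (10%), MCM6 and RRM1, and 10 of 13 mitosis promoters (76.9%), beside 10.8% of the expressed genes and 16.6% of all promoters. The CCAAT box was found in 13 of 20 replication and 12 of 13 mitosis promoters (92.3%), and in 36.9% and 35.7% of the 2 backgrounds. A match is a run of letters and not a measured binding site, and the genes were listed as cell cycle targets to begin with.

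**Figure D2:**
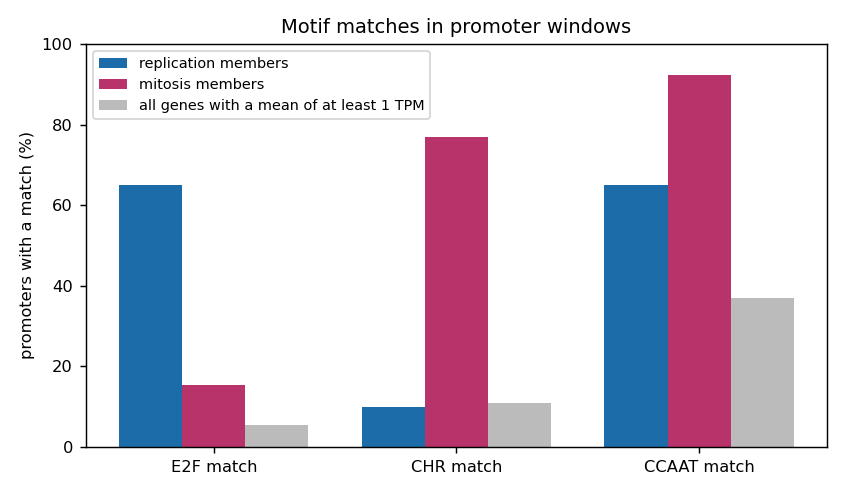
Percentage of promoters (vertical axis) with at least 1 match to each element, for 20 replication members, 13 mitosis members and 9219 genes whose mean reached 1 TPM. The E2F bar is highest for replication at 65% and the CHR bar highest for mitosis at 76.9%.

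The replication promoters with an E2F match and the largest ratio between the lines were those of POLE2 and MCM2, shown for that reason. Their pairing of these letters with a higher value in RC77 T/E comes from this choice and is no result. They are written 5′ to 3′ along the gene's strand, with the E2F letters in capitals. The POLE2 window (chr14:49688165-49688464, minus strand) holds its match 5 bases before the start. In the MCM2 window (chr3:127598161-127598460, plus strand) both strands match in an overlapping run, which begins 2 bases after the first base of the gene.
POLE2: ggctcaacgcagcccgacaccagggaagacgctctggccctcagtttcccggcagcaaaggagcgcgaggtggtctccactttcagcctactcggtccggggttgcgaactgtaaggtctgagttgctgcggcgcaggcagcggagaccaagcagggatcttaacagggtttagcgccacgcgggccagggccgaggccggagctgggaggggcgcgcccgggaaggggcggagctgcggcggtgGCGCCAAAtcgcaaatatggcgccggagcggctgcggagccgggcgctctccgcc
MCM2: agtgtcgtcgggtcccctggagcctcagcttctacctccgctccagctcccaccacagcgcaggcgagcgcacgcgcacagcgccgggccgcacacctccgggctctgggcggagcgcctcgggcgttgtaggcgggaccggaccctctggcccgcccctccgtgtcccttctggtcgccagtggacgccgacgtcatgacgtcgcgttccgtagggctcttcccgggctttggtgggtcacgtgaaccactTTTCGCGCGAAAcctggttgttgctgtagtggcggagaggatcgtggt

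For mitosis, the same choice gave CDC20 and TOP2A, with the CHR letters of either strand in capitals. The CDC20 window (chr1:43358731-43359030, plus strand) has its matches 178 and 65 bases before the start, and the TOP2A window (chr17:40417847-40418146, minus strand) 194 and 151 bases before it.
CDC20: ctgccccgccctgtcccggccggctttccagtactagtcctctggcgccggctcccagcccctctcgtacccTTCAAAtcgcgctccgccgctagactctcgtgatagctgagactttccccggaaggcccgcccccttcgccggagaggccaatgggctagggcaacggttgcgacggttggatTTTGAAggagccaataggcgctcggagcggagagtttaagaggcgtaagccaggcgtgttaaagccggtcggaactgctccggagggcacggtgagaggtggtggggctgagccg
TOP2A: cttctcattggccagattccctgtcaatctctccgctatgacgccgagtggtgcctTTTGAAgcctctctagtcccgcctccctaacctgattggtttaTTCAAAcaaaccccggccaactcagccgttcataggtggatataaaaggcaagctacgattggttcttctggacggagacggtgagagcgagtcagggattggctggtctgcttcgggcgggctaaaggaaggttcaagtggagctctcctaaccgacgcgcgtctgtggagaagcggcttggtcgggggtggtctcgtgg

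In both roles the genes with a match had the slightly lower median. Replication genes with E2F letters had a median log2 ratio of 0.83 (13 genes) and those without one of 1.00 (7 genes). Mitosis genes with CHR letters had a median of 1.44 (10 genes) and those without of 1.49 (3 genes). These are descriptions of few genes in 1 pair of libraries.

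The replicative helicase is a ring of the 6 subunits MCM2 to MCM7, which is loaded on DNA at origins in G1. All 6 were higher in RC77 T/E, but by unequal amounts, from 1.2-fold to 3.93-fold. MCM2, whose start region is printed above, was at 7.17 or 71.7 TPM in MDA PCa 2b against 28.2 or 282 TPM in RC77 T/E, a ratio of 3.93-fold. MCM5 followed with 2.94-fold, at 1.35, 13.5 or 135 TPM in MDA PCa 2b against 3.96, 39.6 or 396 TPM in RC77 T/E. MCM4 (1.57, 15.7 or 157 TPM in MDA PCa 2b against 3.88, 38.8 or 388 TPM in RC77 T/E) had a ratio of 2.47-fold. The subunits MCM6 and MCM7 were closer between the lines. MCM6, 1 of the genes with a settled level, was at 13.3 TPM in MDA PCa 2b against 23.0 TPM in RC77 T/E, or 1.73-fold. For MCM7 the ratio was 1.54-fold, from 4.52, 45.2 or 452 TPM in MDA PCa 2b against 6.95, 69.5 or 695 TPM in RC77 T/E. MCM3 differed least, at 25.0 or 250.4 TPM in MDA PCa 2b against 30.0 or 299.5 TPM in RC77 T/E, a ratio of 1.2-fold. MCM2, MCM4 and MCM5 thus passed 2-fold, and MCM3, MCM6 and MCM7 did not.

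Of the loading factors, CDT1, which brings the helicase to origins, was at 7.07 or 70.7 TPM in MDA PCa 2b against 15.3 or 153 TPM in RC77 T/E (2.16-fold higher in RC77 T/E). Its partner CDC6 had a ratio of 1.78-fold, at 7.45 or 74.5 TPM in MDA PCa 2b against 13.3 or 133 TPM in RC77 T/E. The loaded ring is activated by CDC45 and the GINS complex, with help from MCM10. CDC45 was at 5.71 or 57.1 TPM in MDA PCa 2b against 10.3 or 103 TPM in RC77 T/E, or 1.81-fold. GINS1, a GINS subunit, was at 5.19 or 51.9 TPM in MDA PCa 2b against 12 or 120.3 TPM in RC77 T/E, or 2.32-fold, and its partner GINS2 at 11.6 or 116 TPM in MDA PCa 2b against 15.9 or 159 TPM in RC77 T/E, or 1.38-fold. MCM10 was among the less abundant of the genes with a settled level, at 1.66 TPM in MDA PCa 2b against 3.32 TPM in RC77 T/E. All 6 were on the RC77 T/E side, with only CDT1 and GINS1 past 2-fold.

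Among the polymerases and their clamp, POLE2, a subunit of the leading strand polymerase epsilon, had the largest ratio of all 22 replication genes. It was at 1.68, 16.8 or 168 TPM in MDA PCa 2b against 7.43, 74.3 or 743 TPM in RC77 T/E, a ratio of 4.43-fold. POLA1 and PRIM1 belong to the complex that makes primers. POLA1, its catalytic DNA polymerase, was at 3.48, 34.8 or 348 TPM in MDA PCa 2b against 7.15, 71.5 or 715 TPM in RC77 T/E (2.06-fold), and PRIM1, the primase, at 8.57 or 85.7 TPM in MDA PCa 2b against 14.0 or 140.5 TPM in RC77 T/E (1.64-fold). PCNA, the sliding clamp, was at 6.57, 65.7 or 657 TPM in MDA PCa 2b against 9.42, 94.2 or 942 TPM in RC77 T/E, which is 1.43-fold. The clamp is loaded by replication factor C, of which RFC4 was at 1.23, 12.3 or 123 TPM in MDA PCa 2b against 3.28, 32.8 or 328 TPM in RC77 T/E (2.68-fold), whereas RFC3 was nearly level, at 10.6 TPM in MDA PCa 2b against 12.6 TPM in RC77 T/E (1.19-fold).

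The enzymes that supply deoxynucleotides were all higher in RC77 T/E. RRM1, the large subunit of ribonucleotide reductase, was at 19.3 TPM in MDA PCa 2b against 68.2 TPM in RC77 T/E, or 3.54-fold, and its small subunit RRM2 at 14.9 TPM in MDA PCa 2b against 34.4 TPM in RC77 T/E, or 2.31-fold. RRM1 was the most abundant in RC77 T/E of the 16 genes with a settled level. Thymidine kinase TK1, which salvages thymidine, was the most abundant of the 16 in MDA PCa 2b, at 28 TPM in MDA PCa 2b against 47.2 TPM in RC77 T/E, and differed by 1.68-fold. Thymidylate synthase TYMS, which makes thymidylate anew, was at 19.2 or 192 TPM in MDA PCa 2b against 38.1 or 381 TPM in RC77 T/E, or 1.98-fold.

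**Figure D3:**
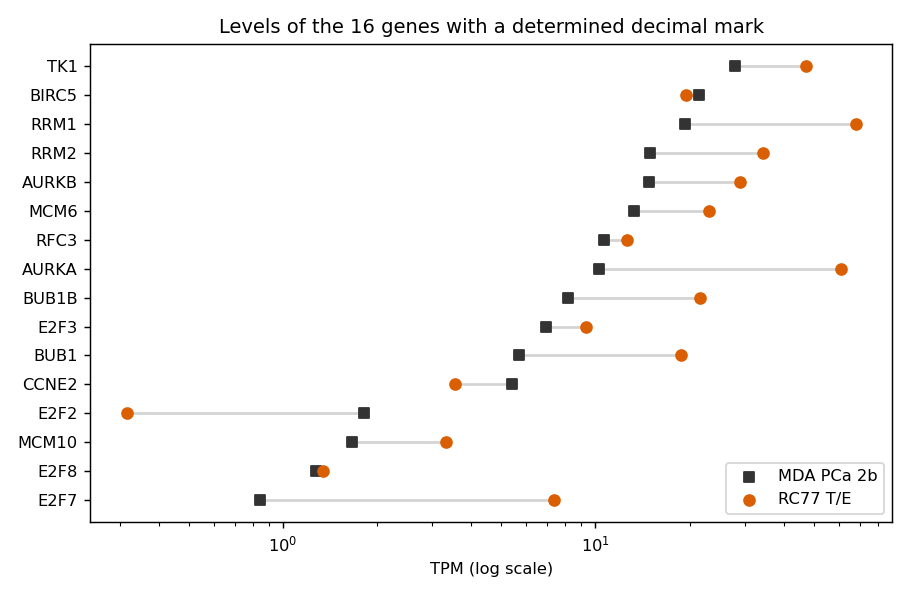
TPM on a log scale (horizontal axis) of the 16 genes whose decimal mark is settled, with a square for MDA PCa 2b and a circle for RC77 T/E, 1 library each. RRM1 and AURKA reach 68.2 and 61.0 TPM in RC77 T/E, and the circle lies left of the square only for BIRC5, CCNE2 and E2F2.

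The G1/S regulators were the least uniform of the roles, with 6 of 8 genes higher in RC77 T/E and a median log2 ratio of 0.60. By any amount, 44.4% of all genes whose mean reached 1 TPM were higher in that line. The E2F family itself was split. Of the activators, E2F1 was at 6.30 or 63.0 TPM in MDA PCa 2b against 13.0 or 129.9 TPM in RC77 T/E (2.06-fold higher in RC77 T/E), and E2F3 at 6.92 TPM in MDA PCa 2b against 9.32 TPM in RC77 T/E (1.35-fold). E2F2, the third activator, went the other way, at 1.82 TPM in MDA PCa 2b against 0.316 TPM in RC77 T/E, which is 5.76-fold higher in MDA PCa 2b. It was the only gene of the 49 below 1 TPM in RC77 T/E.

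The repressor E2F7 had the largest plain ratio of all 49 genes, at 0.841 TPM in MDA PCa 2b against 7.35 TPM in RC77 T/E, or 8.74-fold, and was the only one below 1 TPM in MDA PCa 2b. E2F8, the other repressor of this type, was at 1.27 TPM in MDA PCa 2b against 1.34 TPM in RC77 T/E, a ratio of 1.05-fold. Since E2F2, E2F7 and E2F8 were near 1 TPM in at least 1 line, their ratios rest on low levels. On the log2(TPM + 1) scale, which damps low values, E2F7 had a log2 ratio of 2.18 in place of 3.13 and came after AURKA at 2.46. On that scale E2F2 had a log2 ratio of -1.10 in place of -2.53.

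The E-type cyclins, which drive cells into S phase with CDK2, also parted. CCNE1 was at 3.36, 33.6 or 336 TPM in MDA PCa 2b against 5.72, 57.2 or 572 TPM in RC77 T/E (1.70-fold higher in RC77 T/E), whereas CCNE2 was at 5.39 TPM in MDA PCa 2b against 3.55 TPM in RC77 T/E, 1.52-fold higher in MDA PCa 2b. Their kinase CDK2 was at 2.14, 21.4 or 214 TPM in MDA PCa 2b against 5.33, 53.3 or 533 TPM in RC77 T/E, or 2.49-fold higher in RC77 T/E.

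The mitosis genes had the larger shift. Of 17, 15 were higher in RC77 T/E, 11 of them by 2-fold or more (64.7%), and 0 were 2-fold higher in MDA PCa 2b. At the median, the log2 ratio was 1.47, or 2.78-fold. TPX2, which activates the kinase AURKA and targets it to the spindle, was at 1.44 or 14.4 TPM in MDA PCa 2b against 8.66 or 86.6 TPM in RC77 T/E, a ratio of 6.0-fold, and AURKA itself at 10.2 TPM in MDA PCa 2b against 61.0 TPM in RC77 T/E, or 5.95-fold. The pair had the largest plain ratios of the role, but both lie on chromosome 20. Relative to the median of their chromosomes, TOP2A (2.32) and CDC20 (2.04) had the larger log2 ratios, beside 1.96 for TPX2 and 1.95 for AURKA. The genes within 2 Mb had a median log2 ratio of 0.23 around TPX2, 0.68 around AURKA, -0.22 around TOP2A and -0.23 around CDC20. Relative to these neighbours, TPX2 again had the largest log2 ratio of these genes. KIF11, the motor that separates the spindle poles, was at 5.25 or 52.5 TPM in MDA PCa 2b against 14.6 or 146 TPM in RC77 T/E (2.78-fold).

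The mitotic kinase CDK1 and its cyclins were all on the RC77 T/E side. CDK1 was at 1.65, 16.5 or 165 TPM in MDA PCa 2b against 5.93, 59.3 or 593 TPM in RC77 T/E, or 3.60-fold. Cyclin A2, encoded by CCNA2 and active from S phase on, was at 8.74 or 87.4 TPM in MDA PCa 2b against 25.2 or 252 TPM in RC77 T/E (2.88-fold). Cyclin B1 (CCNB1) was at 3.36, 33.6 or 336 TPM in MDA PCa 2b against 9.41, 94.1 or 941 TPM in RC77 T/E, or 2.80-fold, while cyclin B2 (CCNB2) differed less, at 24.2 or 242 TPM in MDA PCa 2b against 42.6 or 426 TPM in RC77 T/E, or 1.76-fold. PLK1, a kinase needed for mitotic entry and spindle formation, was at 16.3 or 163 TPM in MDA PCa 2b against 35.2 or 352 TPM in RC77 T/E (2.16-fold).

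In the spindle checkpoint, which delays anaphase until chromosomes are attached, the kinase BUB1 was at 5.70 TPM in MDA PCa 2b against 18.8 TPM in RC77 T/E, or 3.29-fold, and BUB1B, the gene of BUBR1, at 8.16 TPM in MDA PCa 2b against 21.5 TPM in RC77 T/E, or 2.64-fold. CDC20, the activator of the anaphase-promoting complex that the checkpoint restrains, was at 2.28, 22.8 or 228 TPM in MDA PCa 2b against 8.94, 89.4 or 894 TPM in RC77 T/E, or 3.91-fold. Its promoter with a pair of CHR runs is printed above, as is that of TOP2A, the topoisomerase that untangles sister chromatids, which was at 1.41, 14.1 or 141 TPM in MDA PCa 2b against 5.18, 51.8 or 518 TPM in RC77 T/E, or 3.67-fold. 

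The chromosomal passenger complex was uneven. Its kinase AURKB was at 14.8 TPM in MDA PCa 2b against 29.1 TPM in RC77 T/E, a ratio of 1.96-fold, whereas its subunit BIRC5, or survivin, was at 21.5 TPM in MDA PCa 2b against 19.4 TPM in RC77 T/E, 1.11-fold higher in MDA PCa 2b. When ratios were centred on the median of all genes, which lay at -0.17, the log2 ratio of BIRC5 changed sign from -0.14 to 0.03, so that it cannot be given a direction. FOXM1, the transcription factor of mitotic genes named above, was the other mitosis gene not higher in RC77 T/E, at 14.9 or 149 TPM in MDA PCa 2b against 12.9 or 129 TPM in RC77 T/E, or 1.16-fold higher in MDA PCa 2b. CENPA, the histone variant that marks centromeres, was at 6.59 or 65.9 TPM in MDA PCa 2b against 11.4 or 114 TPM in RC77 T/E (1.73-fold higher in RC77 T/E), and MKI67, the gene of the proliferation antigen Ki-67, at 10.5 or 105 TPM in MDA PCa 2b against 20.5 or 205 TPM in RC77 T/E (1.96-fold).

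The chromatin genes were UHRF1, which helps to copy DNA methylation to the new strand, and EZH2, the methyltransferase of Polycomb repressive complex 2. UHRF1 was at 8.97 or 89.7 TPM in MDA PCa 2b against 22.1 or 221 TPM in RC77 T/E, or 2.46-fold higher in RC77 T/E, and EZH2 at 8.54 or 85.4 TPM in MDA PCa 2b against 11.6 or 116 TPM in RC77 T/E, or 1.35-fold.

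Set side by side, the mitosis genes were shifted further than the replication genes. The medians were 1.47 and 0.99, a difference of 0.48 on the log2 scale, or 1.40-fold. One scaling factor between the libraries moves both medians alike and leaves this difference as it is. Centred on the median of each gene's chromosome it was 0.37, and without the genes that overlap another coding gene 0.60. The groups overlapped, since 11 of 17 mitosis genes lay above the replication median and 4 of 22 replication genes, POLE2, MCM2, RRM1 and MCM5, lay above the mitosis median. On the other hand, all 22 replication genes were higher in RC77 T/E, and the 2 exceptions in mitosis were BIRC5 and FOXM1. No test is given, since genes are not replicates.

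Further genes of both processes, which are not among the 49, showed a wider gap. These lists were also chosen with earlier results of these data known, so they are no independent check of the members. Whether the gap follows from the make-up of the lists was not tested. Of 43 other mitosis genes, 37 (86.0%) were higher by 2-fold or more in RC77 T/E, beside 22.0% of all genes. In MDA PCa 2b 1 (2.3%) passed this limit, beside 23.9% of all genes. The median log2 ratio of these mitosis genes was 1.71. The largest ratios were those of ANLN, a scaffold of the cytokinetic ring (4.56 TPM in MDA PCa 2b against 53.3 TPM in RC77 T/E, 11.7-fold), KIF20B, a kinesin of cytokinesis (1.05 or 10.5 TPM in MDA PCa 2b against 10.2 or 102 TPM in RC77 T/E, 9.79-fold), and ASPM, a spindle pole protein (1.90 TPM in MDA PCa 2b against 16.4 TPM in RC77 T/E, 8.63-fold). The centromere gene CENPN was the exception, at 29.8 TPM in MDA PCa 2b against 11.3 TPM in RC77 T/E, 2.63-fold higher in MDA PCa 2b.

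Of 35 other replication genes, 14 (40%) were higher by 2-fold or more in RC77 T/E, beside 22.0% of all genes. In MDA PCa 2b 2 (5.7%) passed this limit, beside 23.9% of all genes. The median log2 ratio of these replication genes was 0.67. In this list 13 genes were higher in MDA PCa 2b, by any amount, against 0 of the 22 replication members. GINS4, a further GINS subunit, led with 0.920 TPM in MDA PCa 2b against 8.30 TPM in RC77 T/E (9.03-fold). WDHD1, which couples helicase and polymerase alpha, had a ratio of 3.59-fold, and CLSPN, the checkpoint mediator claspin, of 3.51-fold. On the side of MDA PCa 2b were POLD2, a subunit of polymerase delta, with 2.34-fold, and the origin recognition subunits ORC5 with 2.01-fold and ORC4 with 1.66-fold. Mitosis minus replication came to 1.03 for these lists, or 2.05-fold, beside 1.40-fold for the members.

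**Figure D4:**
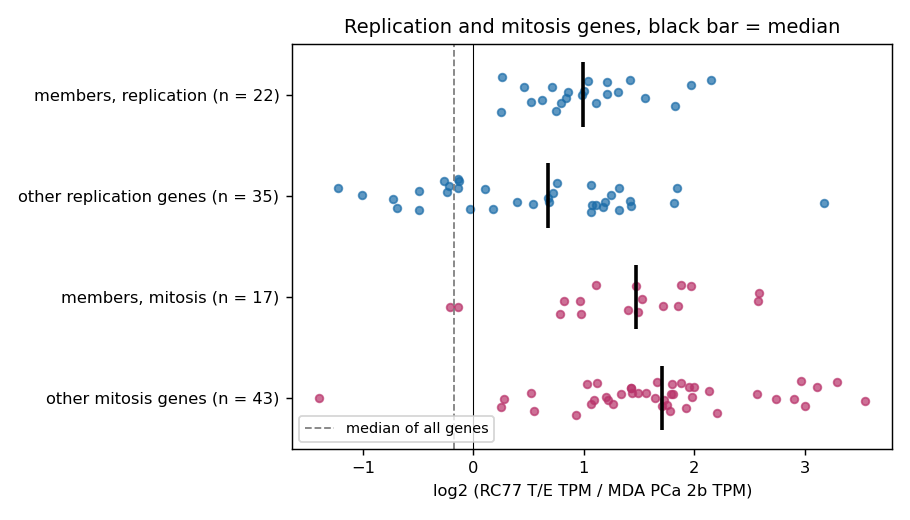
Log2 ratio of RC77 T/E TPM over MDA PCa 2b TPM (horizontal axis) for replication and mitosis genes among the 49 and outside them, 1 point per gene with a small vertical scatter for visibility, and black bars at the medians of 0.99, 0.67, 1.47 and 1.71 from top to bottom. The dashed line is the median of all genes, and both mitosis rows lie further right than the replication rows.

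The list of the RB family and the DREAM complex, which is outside the 49 genes, had no such shift at the median. Of 14 genes, 4 (28.6%) were higher by 2-fold or more in RC77 T/E, near the background of 22.0%, 0 were 2-fold higher in MDA PCa 2b, and the list had a median log2 ratio of -0.24, near that of all genes. RBL1, the gene of the RB relative p107, was at 1.36, 13.6 or 136 TPM in MDA PCa 2b against 8.85, 88.5 or 885 TPM in RC77 T/E, or 6.53-fold. MYBL2, the activator that replaces the repressors in dividing cells, had a ratio of 2.74-fold, at 7.97 or 79.7 TPM in MDA PCa 2b against 21.8 or 218 TPM in RC77 T/E. LIN9, a core subunit shared by both complexes, was 2.68-fold higher, and RB1 2.49-fold, at 6.98 or 69.8 TPM in MDA PCa 2b against 17.4 or 174 TPM in RC77 T/E.

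The remaining 10 of that list were lower in RC77 T/E. RBL2, the gene of p130, was 1.37-fold higher in MDA PCa 2b, and E2F4, the E2F of the DREAM complex, 1.23-fold, at 39.0 TPM in MDA PCa 2b against 31.7 TPM in RC77 T/E. The ratios in this direction were 1.23-fold for E2F5 and 1.53-fold for E2F6, both E2F factors that repress. The dimer partners of the E2Fs stood at 1.34-fold (TFDP1) and 1.66-fold (TFDP2). The histone-binding subunit RBBP4 was 1.86-fold higher in MDA PCa 2b. The other subunits of the core, LIN37, LIN52 and LIN54, lay within 1.13-fold. Relative to the median of all genes, LIN37 and LIN54 lay on the RC77 T/E side.

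The G1 cyclins, their kinases and the inhibitors of these kinases included ratios far larger than those of the 49 genes. Of 12, 5 (41.7%) were higher by 2-fold or more in RC77 T/E, beside 22.0% of all genes. In the other direction 3 (25%) passed this limit, close to the 23.9% of all genes. CCND2, the gene of cyclin D2, was at 0.0275 TPM in MDA PCa 2b against 61.5 TPM in RC77 T/E. CDK6, a kinase that works with D-type cyclins, was at 0.0132 TPM in MDA PCa 2b against 15.3 TPM in RC77 T/E. Its relative CDK4 was 2.86-fold higher in MDA PCa 2b, at 12 or 119.5 TPM in MDA PCa 2b against 4.18 or 41.8 TPM in RC77 T/E. CCND1 and CCND3, the other D-type cyclins, were 1.47-fold and 1.08-fold higher in MDA PCa 2b.

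Among the inhibitors, CDKN2A, which encodes p16 and ARF, was at 1.81 TPM in MDA PCa 2b against 287 TPM in RC77 T/E, or 158-fold. CDKN2B, the gene of p15, was at 0.221 TPM in MDA PCa 2b against 13.2 TPM in RC77 T/E, or 59.6-fold, and CDKN1C, the gene of p57, at 0.403 TPM in MDA PCa 2b against 5.09 TPM in RC77 T/E, or 12.6-fold. CDKN1A (p21) and CDKN2D (p19) were 1.72-fold and 1.31-fold higher in RC77 T/E. CDKN1B, the gene of p27, was 2.60-fold higher in MDA PCa 2b, at 5.85 or 58.5 TPM in MDA PCa 2b against 2.25 or 22.5 TPM in RC77 T/E, and CDKN2C, the gene of p18, 2.01-fold. At 2-fold or more, RC77 T/E thus had higher values of CCND2 and CDK6 and of the inhibitors CDKN2A, CDKN2B and CDKN1C. MDA PCa 2b had higher values of CDK4 and of the inhibitors CDKN1B and CDKN2C.

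The housekeeping genes, used by every cell, were split, with 9 of 19 higher in RC77 T/E and 10 lower. The median log2 ratio of the 18 with a value above 0 in both lines was -0.11. EEF1A1, a translation factor every cell needs, was listed at 0 in MDA PCa 2b and at 2393 TPM in RC77 T/E, so that a listed 0 can be a failed estimate. None of the 49 genes was listed at 0.

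Position along the genome was also examined. The 49 genes lay on 21 chromosomes. The median log2 ratio of all expressed genes on those chromosomes ran from -0.55 on chromosome 22 to 0.62 on chromosome 20. Of the 49, 45 lay above the median of their own chromosome, and 45 above the median of the genes within 2 Mb. Chromosome 20 carried 5 of them, TPX2, AURKA, GINS1, E2F1 and PCNA, and its 327 expressed genes were shifted toward RC77 T/E by 1.54-fold at the median. Relative to that median, TPX2 had a log2 ratio of 1.96, AURKA of 1.95, GINS1 of 0.59, E2F1 of 0.42 and PCNA of -0.10. The shift was not even along the chromosome. Genes within 2 Mb had a median of 0.23 around TPX2, 0.68 around AURKA, 0.08 around GINS1, 0.61 around E2F1 and -0.16 around PCNA. All 5 lay above the median of these neighbours, PCNA included. Without these 5, 21 of 44 genes (47.7%) were higher by 2-fold or more in RC77 T/E, beside 22.0% of all genes, chromosome 20 included.

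Some of the genes share genomic span with other genes, and it is not stated whether the deposited values used strand. In GENCODE 29, 14 of the 49 overlapped another protein-coding gene. On the same strand these were PRIM1 (NACA and AC117378.1), RRM2 (AC007240.1), BUB1B (a readthrough with PAK6) and CENPA (SLC35F6), whose values are the less certain for it. On the opposite strand they were MCM2, MCM7, GINS2, RFC4, PRIM1, TYMS, CCNE2, CDK2, CCNA2, PLK1 and FOXM1. Among the 35 genes with no such overlap, 18 (51.4%) were higher by 2-fold or more in RC77 T/E, with the same median of 1.04. The share of all genes, overlapping or not, was 22.0%.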

How the data were processed

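RNA-Seq of total RNA from 2 untreated cell lines was used, with 1 directional paired-end library each. The deposited values are TPM computed by the authors, listed with the mean and standard error of both lines. The submitters' processing notes name CASAVA, FastQC 0.11.9, Trimmomatic 0.38, Salmon 1.2.0 and the build GRCh38. TPM keeps no read counts, so library depth, and with it the precision of each value, is unknown.

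The design had assumed plain TPM, but numbers from 1 TPM upward that carry 3 or more decimals had lost their decimal mark. Every position with 1 to 3 digits before the mark was tried, and those that returned the deposited mean and standard error were kept. The mark was fixed by the table for 12 of the 49 genes and chosen among the positions with a supplementary table of the study for 4 (AURKA, AURKB, BIRC5 and BUB1B), and had to be given as alternatives over 2 positions for 20 and over 3 for 13. For 6250 of 6253 loci with several positions the ratio was the same at each. Where it was not fixed, the lowest position was used for thresholds, which was right in 76.7% of 687 loci that could be checked. The restoration code was also run on 5000 simulated rows. These were written by the same rules, so the single position, true in 3072 of 3072, was bound to be true. Among deposited loci with a single position that could be checked with the supplementary table, the values were the same in 1309 of 1309.

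Of 22791 rows, 87 repeated a locus and were used once, and loci of 1 symbol were summed. The measure was the plain log2 ratio of RC77 T/E over MDA PCa 2b with no pseudocount. With 1 library per line no p-value was computed, and counts and medians are set beside those of all genes whose mean reached 1 TPM. Genes named outside the 49 are all of the RB and G1 lists, and the 3 largest ratios in each direction of the replication and mitosis lists, with markers of cell types. Some markers of the fixed lists are not reported here. The members, lists and elements were chosen with earlier results of these data known. Promoters are from RefSeq, gene overlaps from GENCODE 29. Alternatives were other pseudocounts, scalings, thresholds, backgrounds and readings of the mark. Python 3.11.15, numpy 2.4.6 and matplotlib 3.10.9 were used.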

Additional observations from a re-analysis of the deposited data

How the results depend on the processing

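No paired analysis was possible because each line has 1 library, and no library could be left out. The count of 25 genes on the RC77 T/E side by 2-fold or more ranged from 21 to 31. It was 21 with a pseudocount of 1 TPM at the lowest position of the mark, and 31 when centred on the median of all genes. With that pseudocount at the highest position it was 25. The count moved to 38 at 1.5-fold, and to 16 when the commas were read as digit grouping. The count of 1 gene higher in MDA PCa 2b moved to 2 at 1.5-fold and to 18 under the comma reading. That reading, which takes each value as a whole number without a decimal mark, turned the G1/S median to -1.44 and the log2 ratios of MCM2 (-1.35), CDT1 (-2.21), GINS1 (-2.11), E2F1 (-2.28), CCNA2 (-1.79), BUB1 (-4.92), BUB1B (-1.92), KIF11 (-1.85) and UHRF1 (-2.02), all 2-fold or more higher in RC77 T/E as reported. In all 17 genes changed sign, so that 28 in place of 45 were higher in RC77 T/E. The other 8 were CDC6 (-2.49), CDC45 (-2.46), PRIM1 (-2.61), TK1 (-12.54), E2F3 (-6.21), E2F8 (-3.25), CENPA (-2.53) and EZH2 (-2.88). The comma reading is not that of the study. Its supplementary table gave 1 of the restored positions in 687 of 687 checked loci with several positions. The share of all genes past 2-fold on the RC77 T/E side went from 22.0% to 14.1% over genes at 1 TPM or more in both lines. Centring on all genes changed the shares to 24.5% and 20.3%. At 10 TPM, with the lowest position of the mark, 15 of the 49 genes counted as expressed in MDA PCa 2b, while RC77 T/E had 29, in place of 48 in each at 1 TPM. At the highest position these counts were 41 and 43. A pseudocount of 1 TPM lowered the log2 ratio of TPX2 from 2.58 to 1.98 at the lowest position. Mitosis minus replication lay between 0.37, when centred per chromosome, and 0.60, without overlapping genes. Leaving out CCNA2 and MKI67, which lie on either side of the mitosis median, cannot move that median and is no check of it. In promoter windows from 100 bases before to 50 after the start, 45% of the members' promoters held E2F letters, 22.5% CHR letters and 60% CCAAT, beside 2.65%, 4.20% and 23.8% of expressed genes. CHR letters were then in 0 of 20 replication and 8 of 13 mitosis promoters, and E2F letters in 12 and 1. The settings with a centring per chromosome, without overlapping genes and with the highest mark position at other thresholds or a pseudocount were chosen after seeing the data.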
